A study of Rattus norvegicus with 20 samples.

Results

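The genes described here mark the walls of brain blood vessels: the endothelial cells that line them, with the junctions and transporters of the blood-brain barrier, and the mural cells around them, which are pericytes and vascular smooth muscle cells. A list of 41 symbols was looked up in a table of 17296 gene symbols, and 38 were found. Slco1a4, Ly6c1 and Cspg4l were not analysed here. The 38 genes comprise 9 barrier genes (4 of junctions and 5 transporters), 17 other endothelial genes (6 receptors, 8 surface or secreted proteins and 3 transcription factors) and 12 mural genes (7 of pericytes and 5 of smooth muscle). All 38 were among the 12846 genes that passed the filter on low counts.

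RNA was sequenced from the nucleus accumbens, part of the ventral striatum and of the circuit for reward, from male Sprague-Dawley rats, 7 to 9 weeks old, that were wild type, were housed 2 to a cage and self-administered cocaine. The groups differed in what the rats drank. Water was the drink of the 5 rats of the H2O group, and antibiotics of the 4 rats of the Abx group. The 6 rats of the SCFA group drank short-chain fatty acids, and the 5 of the Abx_SCFA group drank these together with antibiotics. Antibiotics deplete gut bacteria, and short-chain fatty acids are products of bacterial fermentation. No group without cocaine is part of the 20 libraries, so all values belong to cocaine-taking rats.

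In the brain, endothelial cells are sealed to each other by tight junctions and move nutrients and drugs through dedicated carriers and efflux pumps. Pericytes sit on capillaries and are kept there by platelet-derived growth factor signalling from the endothelium, while smooth muscle cells wrap arteries and arterioles and contract. All of these cells are a small share of brain tissue. In bulk RNA a difference in a vascular gene may come from the number of vascular cells or from RNA per cell. It may also come from other cells that express the gene, and these sources cannot be told apart.

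The libraries held from 17525358 to 25731636 counts. A count of 0 allows up to 3 counts, which is 0.116 to 0.171 CPM (counts scaled to library size) depending on the library, and this floor covers counting error only. The least counted vascular gene was Cnn1, with 5 counts in its lowest library. Rats drinking H2O or Abx carry numbers of the 2-hundred and 3-hundred series and all rats drinking fatty acids carry numbers of the 4-hundred series, so that fatty acids and number series cannot be told apart. Some libraries stood apart. Counts of the gene Cend1 were 4 to 14 in all 6 libraries of the SCFA group. They were similarly low in H2O replicate 4 (7 counts) and in Abx_SCFA replicate 5 (8 counts), and 88 to 240 in the remaining 12 libraries. The sum of 11 cortical excitatory neuron markers was 1030 CPM in SCFA replicate 2 and 1631 CPM in SCFA replicate 5, against 136 to 812 CPM in the other 18. For set medians and some single genes, values without these libraries are given as well. Nothing in the labels names cage mates, and p-values measure the spread between these libraries.

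The labelled tissue carried the markers of the striatum and of all 3 vascular cell types in every library. Summed levels of 11 medium spiny neuron markers, the principal neurons of the accumbens, were 3424 to 8193 CPM. Among the vascular markers, the lowest library held 19.25 CPM of the endothelial adhesion gene Pecam1, 44.7 CPM of the pericyte receptor gene Pdgfrb and 10.85 CPM of the smooth muscle actin gene Acta2.

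Junction genes varied little from rat to rat. Claudin 5, the main sealing protein of brain endothelial tight junctions, is encoded by Cldn5. Its level was 151, 126, 116, 135 and 134 CPM in the 5 H2O libraries and 127, 101, 117 and 123 CPM in the 4 Abx libraries. In the SCFA group the lowest, median and highest of the 6 libraries had 110.1, 139 and 161 CPM, and the 5 Abx_SCFA libraries had 152, 140.2, 169, 138 and 183 CPM. All 5 Abx_SCFA libraries were above all 4 Abx libraries, while H2O overlapped both. Ocln, which encodes the tight junction protein occludin, lay between 20.7 and 28.1 CPM over all 20 libraries. The scaffold gene Tjp1 (ZO-1) lay between 206 and 274 CPM, and was the vascular gene with the smallest ratio of highest to lowest library, 1.33. Esam, an endothelial adhesion molecule of tight junctions, lay between 22.9 and 38.3 CPM, with the highest value in Abx_SCFA replicate 5.

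Of the transporter genes, Slc2a1 encodes the glucose carrier GLUT1 of the barrier. It had 242, 222, 224, 229 and 239 CPM in H2O and 215, 196, 189.5 and 237 CPM in Abx. In SCFA the lowest, median and highest values were 228, 244 and 258 CPM, and in Abx_SCFA the values were 233, 235, 242, 248 and 287 CPM. The lowest 3 of the 20 libraries were Abx libraries, but Abx replicate 4 lay among the H2O libraries. Abcb1a, which encodes an efflux pump of the P-glycoprotein type, ranged from 72.6 to 120.2 CPM. Reads of the near-identical copy Abcb1b may be shared with it, which makes its level uncertain, although Abcb1b had only 28 to 61 counts. The thyroid hormone carrier gene Slco1c1 ranged from 114 to 166 CPM. Mfsd2a, a lipid carrier that limits vesicle transport across the barrier, ranged from 22.4 to 40.9 CPM. Abcg2, another efflux pump, had 18.6 CPM in H2O replicate 5 and 4.97 to 11.3 CPM in the other libraries.

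Endothelial receptor genes include those for vascular endothelial growth factor (Flt1, Kdr), for angiopoietins (Tek, with its relative Tie1), for the bone morphogenetic protein branch (Eng, a co-receptor) and the guidance receptor Robo4. Flt1 had 157, 151, 158, 164 and 168 CPM in H2O, 174, 136, 129 and 159 CPM in Abx, and 170.3, 177, 180.3, 171 and 199.6 CPM in Abx_SCFA. In SCFA its lowest, median and highest values were 136, 170.0 and 201.3 CPM. The Abx_SCFA libraries were all above the H2O libraries, and Abx spanned a wider range than H2O. Kdr ranged from 16.2 to 28.4 CPM, Tek from 29.96 to 46.2 CPM, Tie1 from 23.5 to 37.4 CPM and Eng from 46.2 to 73.5 CPM. Robo4 was scarce, at 0.772 to 2.17 CPM, with 14 counts in its lowest library.

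Among the other endothelial genes, Rgcc encodes a cell cycle regulator that is enriched in brain endothelium. Rgcc had 40.4, 38.2, 33.2, 32.8 and 39.9 CPM in H2O and 40.03, 35.4, 40.7 and 42.9 CPM in Abx. In SCFA it had a lowest, median and highest value of 38.9, 41.7 and 45.6 CPM, and in Abx_SCFA it had 45.9, 42.95, 55.1, 52.8 and 46.98 CPM. All 5 Abx_SCFA libraries lay above all 5 H2O and all 4 Abx libraries. The junctional adhesion gene Pecam1 ranged from 19.25 to 32.6 CPM over the 20 libraries, with its lowest value in Abx replicate 2. The stem and endothelial sialomucin genes Cd34 and Emcn ranged from 7.35 to 23.2 and from 7.44 to 13.8 CPM, and the related Podxl from 52.98 to 81.3 CPM. Vwf, which encodes the clotting carrier von Willebrand factor, ranged from 79.9 to 182 CPM, Egfl7, a secreted factor of the vessel wall, from 19.5 to 35.95 CPM, and the nitric oxide synthase gene Nos3 from 18.1 to 34.5 CPM. The endothelial transcription factor genes Sox17, Sox18 and Erg ranged from 10.4 to 20.7, from 8.98 to 20.8 and from 5.93 to 10.1 CPM.

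Among pericyte genes, Pdgfrb encodes the receptor through which endothelial platelet-derived growth factor B holds pericytes on capillaries. Its values were 47.8, 52.99, 60.8, 54.5 and 54.9 CPM in H2O, 53.3, 45.3, 52.98 and 54.9 CPM in Abx, and 54.6, 60.6, 58.4, 44.7 and 61.4 CPM in Abx_SCFA. In SCFA the lowest, median and highest values were 47.4, 57.0 and 65.1 CPM, and all 4 groups overlapped. Vtn (vitronectin, a secreted matrix protein of pericytes) ranged from 23.3 to 36.7 CPM, Notch3 (a mural cell receptor) from 41.6 to 84.3 CPM and Abcc9 (a subunit of ATP-sensitive potassium channels) from 27.6 to 52.9 CPM. The lowest library was Abx replicate 3 for all 3 genes. The aminopeptidase gene Anpep ranged from 3.32 to 7.04 CPM, the hypoxia-inducible domain gene Higd1b from 3.13 to 6.08 CPM and the endothelin receptor gene Ednra from 7.08 to 13.2 CPM.

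The 5 smooth muscle genes encode contractile proteins. Acta2, the smooth muscle actin gene, had 10.85, 26.1, 23.2, 15.5 and 21.6 CPM in H2O, 24.4, 15.8, 16.3 and 41.7 CPM in Abx, and 32.1, 26.95, 43.3, 23.4 and 25.4 CPM in Abx_SCFA. Tagln, an actin-binding protein gene of the same cells, had 19.9, 27.04, 38.4, 20.6 and 27.4 CPM in H2O, 27.8, 23.6, 38.3 and 40.8 CPM in Abx, and 43.7, 40.7, 49.5, 28.5 and 27.1 CPM in Abx_SCFA. In both genes H2O replicate 1 was the lowest and Abx_SCFA replicate 3 the highest of the 20 libraries, and the groups overlapped. The tropomyosin gene Tpm2 had 10.8, 14.7, 13.2, 12.2 and 12.6 CPM in H2O, 16.5, 11.9, 14.9 and 18.1 CPM in Abx, and 17.3, 17.4, 18.9, 16.98 and 16.1 CPM in Abx_SCFA. Every Abx_SCFA library held more Tpm2 than every H2O library. In SCFA, the lowest, median and highest values were 15.5, 27.9 and 33.9 CPM for Acta2, 24.6, 32.8 and 38.2 CPM for Tagln and 12.3, 13.99 and 17.1 CPM for Tpm2. The smooth muscle myosin gene Myh11 ranged from 33.5 to 86.1 CPM and the calponin gene Cnn1 from 0.237 to 1.83 CPM. Actin and tropomyosin genes have close relatives (Acta1 had 167 to 349 counts and Tpm1 had 3433 to 5964), so Acta2 and Tpm2 are uncertain where reads fit both.

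**Figure D1:**
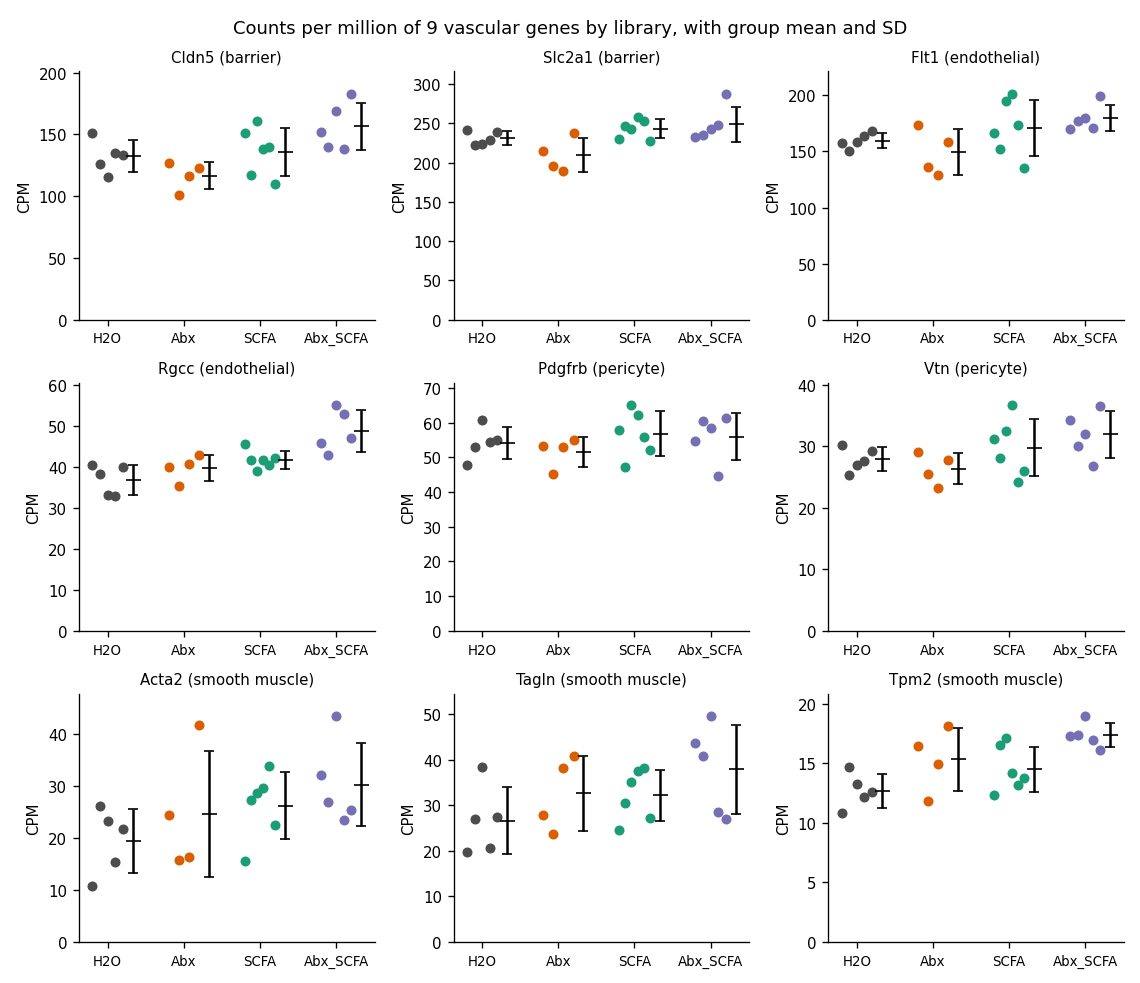
CPM (vertical axis, linear, from 0) of 9 vascular genes in each of the 20 libraries (points), by drinking group, with the group mean and SD (bar). Abx_SCFA libraries lie above all Abx libraries for Cldn5 and Rgcc and above all H2O libraries for Flt1, Rgcc and Tpm2, while Pdgfrb, Acta2 and Tagln overlap.

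As a set, smooth muscle genes were the most variable of the vascular genes within a group, though not each of them was. The median SD of log2 CPM within groups was 0.38 for the 5 smooth muscle genes, 0.21 for the 17 endothelial genes, 0.21 for the 7 pericyte genes and 0.15 for the 9 barrier genes, beside 0.16 for all 12846 genes tested. The ratio of the highest to the lowest library was 3.99 for Acta2, 2.49 for Tagln, 2.58 for Myh11 and 7.72 for the scarce Cnn1, but 1.75 for Tpm2, against 1.81 for Cldn5, 1.52 for Slc2a1 and 1.46 for Pdgfrb. Outside smooth muscle, the ratios of Abcg2 (3.74), Cd34 (3.15) and Robo4 (2.81) were above those of Tagln and Myh11. Mean log2 CPM over the 5 smooth muscle genes ran from 3.14 in H2O replicates 1 and 4 to 4.54 in Abx_SCFA replicate 3 and 4.45 in Abx replicate 4. Over the 17 endothelial genes it ran only from 4.27 in Abx replicate 2 to 4.97 in Abx_SCFA replicate 5.

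**Figure D2:**
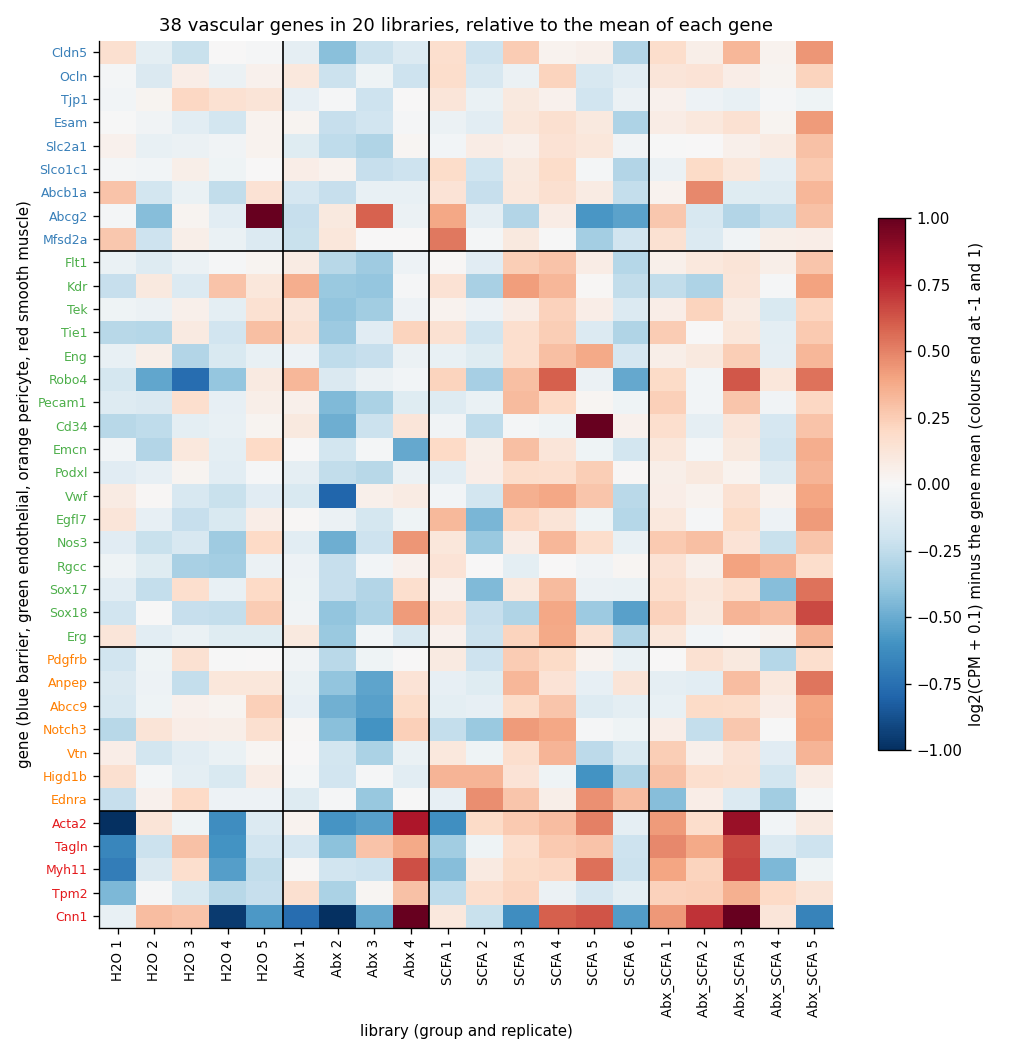
Each row is 1 of 38 vascular genes and each column 1 of 20 libraries, coloured by log2(CPM + 0.1) minus the mean of the gene over all libraries, with colours ending at -1 and 1. Smooth muscle genes form a block that is low in H2O replicates 1 and 4 and high in Abx replicate 4 and Abx_SCFA replicate 3, while Abx_SCFA replicate 5 is high in most barrier, endothelial and pericyte genes.

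Smooth muscle genes varied together across rats and apart from barrier genes, whereas barrier, endothelial and pericyte genes were correlated across these sets about as much as within them. After removal of group means, the median Pearson correlation of log2 CPM was 0.68 over the 10 pairs of smooth muscle genes, 0.52 over the 136 pairs of endothelial genes, 0.36 over the 21 pairs of pericyte genes and 0.32 over the 36 pairs of barrier genes. Between sets it was 0.45 for endothelial with pericyte genes (119 pairs), 0.40 for barrier with endothelial genes (153 pairs), 0.30 for barrier with pericyte genes (63 pairs), 0.23 for pericyte with smooth muscle genes (35 pairs), 0.26 for endothelial with smooth muscle genes (85 pairs) and -0.02 for barrier with smooth muscle genes (45 pairs). Single genes departed from these values. The lowest medians with the endothelial genes were those of Ednra (-0.07), Mfsd2a (-0.02), Higd1b (0.08) and Rgcc (0.08), so that Rgcc hardly followed the other endothelial genes within groups. Ednra, listed here with the pericyte genes, had a median of 0.30 with the smooth muscle genes, so its place in the pericyte set is uncertain. All of these medians describe the same 20 libraries, and pairs share genes, depth and tissue piece.

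For 6 chosen pairs the correlation over the 20 libraries was tested on log2 CPM with permutation tests of 100000 resamples (two-sided) and adjusted over the 6 pairs. Acta2 and Tagln had r = 0.79 (adjusted p = 0.0003) and rho = 0.77 (adjusted p = 0.00096), and r = 0.68 without H2O replicate 1 and Abx_SCFA replicate 3. Cldn5 and Pecam1 had r = 0.66 (adjusted p = 0.005) and rho = 0.58 (adjusted p = 0.014), with r = 0.51 without Abx replicate 2 and Abx_SCFA replicate 5, which were the farthest from the median of Cldn5. Among barrier genes, Cldn5 and Abcb1a had r = 0.61 (adjusted p = 0.0095) and rho = 0.62 (adjusted p = 0.013), and r = 0.47 without the same libraries. The pericyte pair Pdgfrb and Vtn had r = 0.53 (adjusted p = 0.026) and rho = 0.59 (adjusted p = 0.013), and r = 0.48 without Abx_SCFA replicate 4 and Abx replicate 2. Across cell types, Cldn5 and Pdgfrb had r = 0.51 (adjusted p = 0.027) and rho = 0.55 (adjusted p = 0.016), but r = 0.31 without Abx replicate 2 and Abx_SCFA replicate 5, so that this relation rests in part on those libraries. Cldn5 and Acta2 had r = 0.22 (adjusted p = 0.35) and rho = 0.31 (adjusted p = 0.18), and r = 0.11 without the 2 libraries. Unadjusted p-values of the 6 pairs were 0.0017, 0.0047, 0.018, 5e-05, 0.022 and 0.35 for r, in the order Cldn5 with Pecam1, Cldn5 with Abcb1a, Pdgfrb with Vtn, Acta2 with Tagln, Cldn5 with Pdgfrb and Cldn5 with Acta2. With group means removed, r was 0.45, 0.48, 0.48, 0.73, 0.49 and 0.01 in that order. Among the 11 libraries of the 4-hundred number series, r was 0.65, 0.52, 0.61, 0.88, 0.59 and 0.24, and the other number series hold only 4 and 5 libraries, too few for a value.

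**Figure D3:**
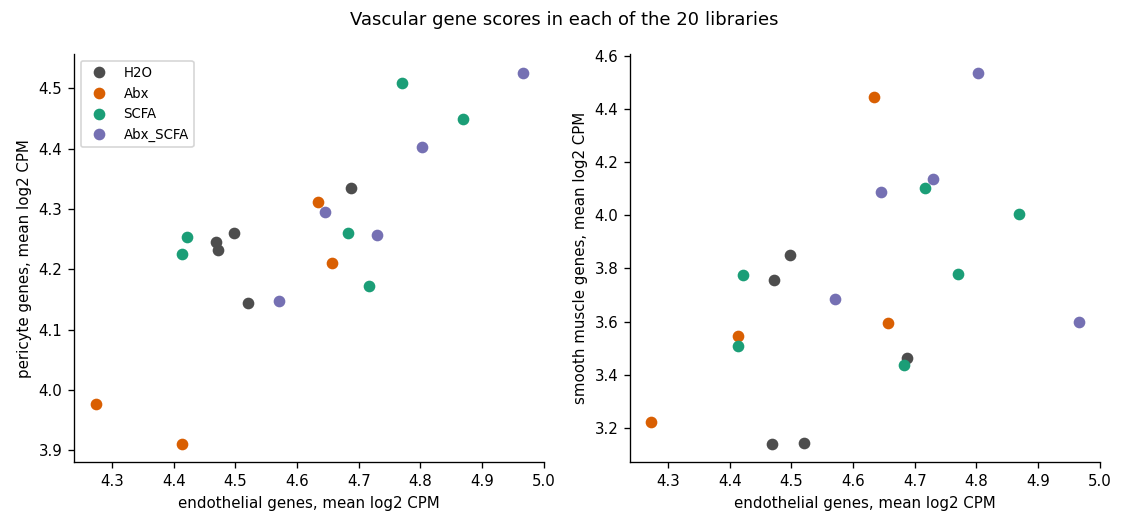
Mean log2 CPM of 17 endothelial genes (horizontal axis) against that of 7 pericyte genes (left) and 5 smooth muscle genes (right) in each of the 20 libraries, coloured by group. The smooth muscle axis spans 3.14 to 4.54 and the pericyte axis only 3.91 to 4.53, with Abx replicates 2 and 3 lowest for pericyte genes.

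Sequences upstream of 4 genes are shown: Cldn5, Rgcc and Tpm2, each with groups that did not overlap in a comparison below, and Acta2, the defining actin gene of smooth muscle. They are the 250 bases before the start of the gene, written 5′ to 3′ on the strand of the gene (the minus strand for all 4), from RefSeq on the GRCr8 assembly, which is not the build of the count table. The positions are chr11:95718599-95718848 for Cldn5, chr15:61084409-61084658 for Rgcc, chr1:241172504-241172753 for Acta2 and chr5:62575727-62575976 for Tpm2. Capitals mark GGGCGG (the core letters of a GC box, on either strand) in Cldn5, Rgcc and Tpm2, and in Acta2 matches with at most 1 mismatch to the CArG box, the element of smooth muscle genes that serum response factor binds.
Cldn5: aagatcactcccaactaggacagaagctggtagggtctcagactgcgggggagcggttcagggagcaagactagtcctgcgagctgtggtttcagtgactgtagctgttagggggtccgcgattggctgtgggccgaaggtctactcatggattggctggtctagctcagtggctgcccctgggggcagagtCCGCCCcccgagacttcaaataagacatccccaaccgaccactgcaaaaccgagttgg
Rgcc: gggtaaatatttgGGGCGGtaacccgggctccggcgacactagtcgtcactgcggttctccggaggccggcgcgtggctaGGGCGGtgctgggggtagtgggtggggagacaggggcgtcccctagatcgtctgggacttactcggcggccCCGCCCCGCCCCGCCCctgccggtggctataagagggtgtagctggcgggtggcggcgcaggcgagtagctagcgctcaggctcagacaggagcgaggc
Acta2: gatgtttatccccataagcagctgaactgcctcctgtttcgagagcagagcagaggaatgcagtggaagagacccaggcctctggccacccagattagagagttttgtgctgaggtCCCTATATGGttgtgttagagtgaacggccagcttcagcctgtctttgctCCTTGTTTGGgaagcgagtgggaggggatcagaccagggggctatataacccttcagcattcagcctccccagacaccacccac
Tpm2: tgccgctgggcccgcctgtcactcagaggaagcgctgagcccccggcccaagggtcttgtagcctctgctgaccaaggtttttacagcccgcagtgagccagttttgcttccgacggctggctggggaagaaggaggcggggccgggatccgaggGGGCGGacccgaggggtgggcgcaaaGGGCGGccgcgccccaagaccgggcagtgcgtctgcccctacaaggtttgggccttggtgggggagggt

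The 2 near matches of Acta2 are CCCTATATGG, which begins 134 bases before the start, and CCTTGTTTGG, which begins 84 bases before it. RefSeq promoters were found for 26 of the 38 genes. Of the smooth muscle genes, Acta2, Tpm2 and Cnn1 had an entry and were searched, and Tagln and Myh11 had none. The CArG box, searched on both strands, was found in 0 of 26 (1.5% of all 33469 promoters of this length held it) and with at most 1 mismatch in 7 of 26, namely Acta2, Emcn, Kdr, Ocln, Tie1, Tjp1 and Vtn (18.7% of all). GGGCGG was found in 16 of 26 (30.5% of all) and CCGGAA, the core letters bound by ETS factors such as Erg, in 1 of 26, Kdr (12.6% of all). Members were counted by gene and the shares of all by promoter, so the 2 are not the same measure. Matches describe these windows only, and Tpm2 held no near match to the CArG box in its window.

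The comparison of Abx with H2O asks how the vascular genes of rats drinking antibiotics differed from those of rats drinking water. Barrier and pericyte genes were lower by small amounts and smooth muscle genes higher by larger and more variable ones, and no gene passed the test. In the quasi-likelihood test of edgeR, 0 of the 38 vascular genes and 0.0% of all 12846 genes had a Benjamini-Hochberg adjusted p below 0.05. At an unadjusted p below 0.05, 2 vascular genes were lower (5.53% of all genes tested were) and 1 was higher (3.26% of all). These were the scaffold gene Tjp1 (log2 fold change -0.19 ± 0.069, SE, adjusted p = 0.563), the glucose carrier gene Slc2a1 (-0.16 ± 0.070, adjusted p = 0.563) and, on the higher side, Tpm2 (0.26 ± 0.12, adjusted p = 0.563). Within groups the median correlation with the endothelial genes was 0.19 for Tjp1 and 0.49 for Slc2a1. Which cells held the RNA of these genes was not tested.

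All 9 barrier genes had negative log2 fold changes in Abx against H2O, with a median of -0.15, and all 7 pericyte genes did, with a median of -0.13. Among the other 17 endothelial genes, 11 were negative, with a median of -0.06. All 5 smooth muscle genes were positive, with a median of 0.33, while the median of all genes tested was -0.01. Cldn5 stood at -0.20 ± 0.11, Abcb1a at -0.15 ± 0.13, Mfsd2a at -0.02 ± 0.13, Pecam1 at -0.19 ± 0.11 and Flt1 at -0.11 ± 0.099. Rgcc (0.09 ± 0.084) and Robo4 (0.37 ± 0.25) were on the positive side. The pericyte genes Pdgfrb (-0.08 ± 0.096), Vtn (-0.09 ± 0.11), Notch3 (-0.20 ± 0.18) and Abcc9 (-0.24 ± 0.13) were each within 2 SE of 0. So were Acta2 (0.33 ± 0.30), Tagln (0.28 ± 0.22) and Myh11 (0.36 ± 0.24).

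The smooth muscle values rest in large part on Abx replicate 4: without it the median of the 5 genes was 0.13. It was 0.20 without H2O replicate 1. The barrier median was -0.09 without H2O replicate 1 and -0.08 without H2O replicate 5, and the pericyte median -0.07 without Abx replicate 3. The endothelial median was -0.02 without Abx replicate 2 or 3, -0.10 without Abx replicate 1 and -0.13 without Abx replicate 4. Within the 2-hundred number series (2 Abx and 2 H2O rats) the median difference of log2 CPM was -0.08 for barrier, -0.13 for pericyte and 0.15 for smooth muscle genes. In the 3-hundred series (2 Abx and 3 H2O rats) these medians were -0.12, -0.19 and 0.43. The medians of these sets thus had the same direction in both series, while the other endothelial genes stood at -0.06 and -0.003. The series divide the libraries compared above and do not repeat the comparison, and Abx replicate 4 belongs to the 3-hundred series. Single genes went against their set. These were Ocln (0.03), Slco1c1 (0.08), Abcg2 (0.16), Ednra (0.02) and Cnn1 (-1.05) in the 2-hundred series and Mfsd2a (0.05) in the 3-hundred series. None of the 38 genes had all Abx libraries below all H2O libraries, as 1.21% of all genes did. The count of 3 genes at an unadjusted p below 0.05 became 1 without H2O replicate 1, 4 or 5 or Abx replicate 3. Of all genes tested, 8.85%, 5.41%, 9.95% and 4.84% were below 0.05 in these fits, in that order. The count was 4 of 38 without H2O replicate 3, beside 6.56% of all genes.

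Markers of other cells moved with this comparison, and their part in it was not tested. The summed level of 9 oligodendrocyte markers, all present, was 14290 to 22110 CPM in H2O and 6552 to 13740 CPM in Abx. That of 11 cortical excitatory markers present of 12 was 136 to 453 CPM in H2O and 204 to 812 CPM in Abx. Red blood cell genes (4 of 7 present, all above 0) summed to 80.2 to 238 CPM in H2O and to 64.1 to 133 CPM in Abx. Astrocyte markers were negative in 8 of 9, with a median log2 fold change of -0.12 and 2 lower at an unadjusted p below 0.05. Microglia markers were negative in 8 of 9, with a median of -0.15. Small negative values were thus not particular to the barrier and pericyte genes. The medians of perivascular macrophage and fibroblast markers were -0.02 and 0.004. With the oligodendrocyte level in the model, the median of the barrier genes was -0.06 and that of smooth muscle genes 0.32, and with the cortical level they were -0.11 and 0.24. The pericyte and endothelial medians were farther from 0 with the cortical level, at -0.24 and -0.10.

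**Figure D4:**
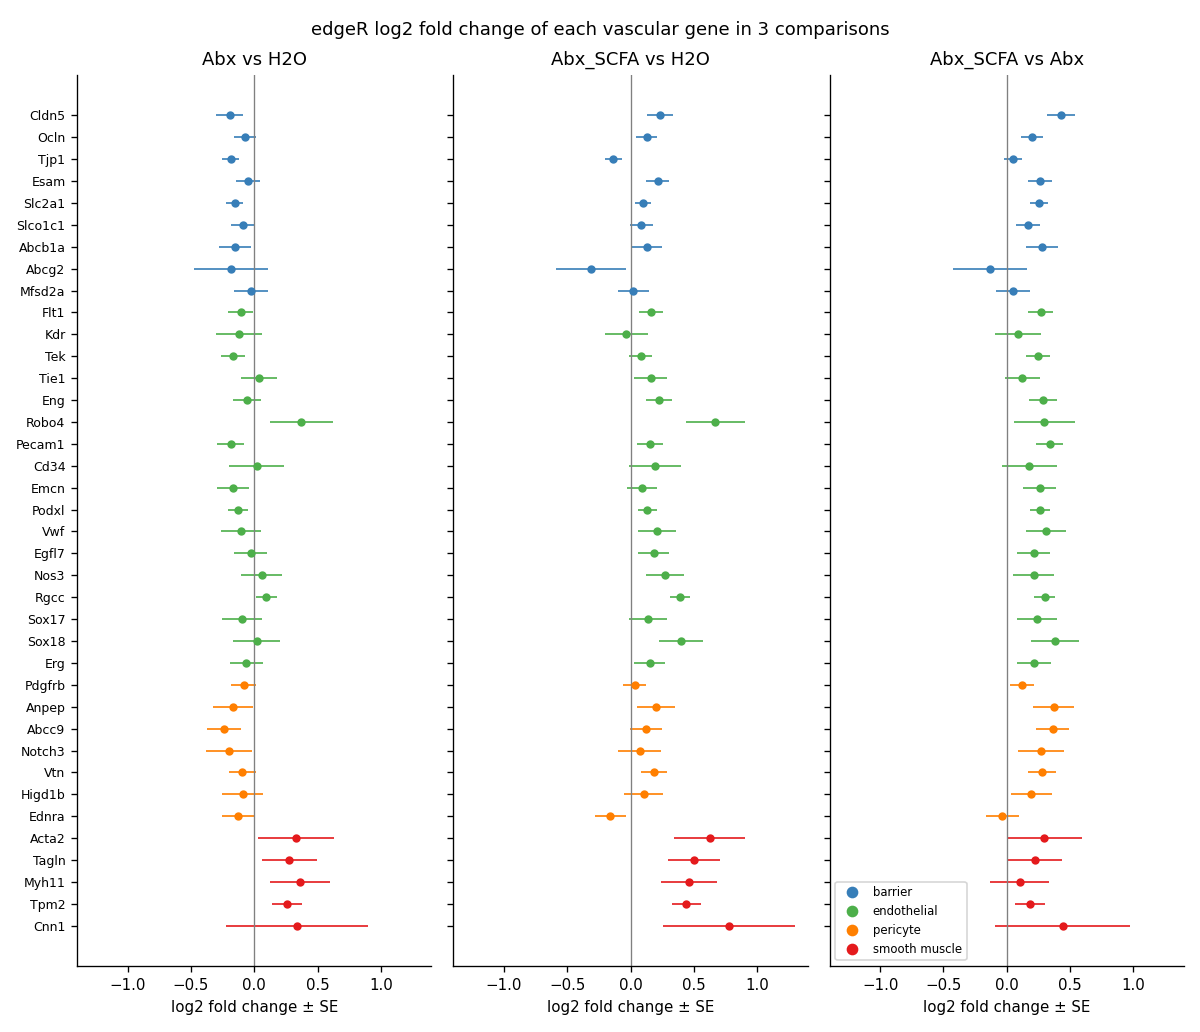
edgeR log2 fold changes (points) with SE (lines) of the 38 vascular genes in 3 comparisons, coloured by gene set. In Abx against H2O the barrier and pericyte genes lie left of 0 and the smooth muscle genes right of 0, and in Abx_SCFA against Abx 36 of 38 genes lie right of 0.

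In SCFA against H2O, the comparison of fatty acids alone, most vascular genes had small positive differences. Fatty acids and number series cannot be told apart in this comparison. Of the 38 genes, 33 had positive log2 fold changes, with a median of 0.07 beside -0.003 for all genes tested. The medians were 0.01 for barrier, 0.09 for endothelial, 0.06 for pericyte and 0.27 for smooth muscle genes. edgeR called 0 of 38 and 0.0% of all genes. At an unadjusted p below 0.05, 3 of 38 were higher and 0 lower, against 8.2% higher and 5.58% lower among all genes tested, so that the vascular share lay near that of all genes.

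These medians moved with single libraries. The barrier median took the negative sign without H2O replicate 4 (-0.002) or SCFA replicate 1 (-0.03), 3 (-0.01) or 4 (-0.02), and was 0.05 to 0.06 without H2O replicate 1 or SCFA replicate 2 or 6. It was 0.02 to 0.03 without H2O replicate 3 or 5 or SCFA replicate 5, and 0.002 without H2O replicate 2. The endothelial median was 0.05 without SCFA replicate 3 or 4 and 0.15 without H2O replicate 5 or SCFA replicate 6. On leaving out SCFA replicate 2, 3, 4 or 5, the pericyte median was 0.11, 0.02, 0.03 or 0.12 in that order, and the smooth muscle median 0.44 without H2O replicate 3. Without both SCFA replicates 2 and 5, the libraries with high cortical markers, the medians were 0.05 for barrier, 0.14 for endothelial and 0.13 for pericyte genes. Neuronal markers moved with this comparison. Cortical excitatory markers had a median log2 fold change of 2.61, with 10 of 11 higher and 1 lower at an unadjusted p below 0.05. All 11 medium spiny neuron markers were negative, with a median of -0.34, 2 of them lower at an unadjusted p below 0.05, and summed to 5837 to 7934 CPM in H2O and 3424 to 7365 CPM in SCFA. Their part in the result was not tested.

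The 3 genes were Ednra (0.27 ± 0.12, SE, adjusted p = 0.315), Rgcc (0.17 ± 0.076, adjusted p = 0.325) and Podxl (0.15 ± 0.071, adjusted p = 0.358). Ednra was highest in SCFA replicates 2 and 5, and on leaving out 1 library its value ran from 0.22 to 0.33. Without H2O replicate 4 the count was 0 (11.1% of all genes), without SCFA replicate 5 it was 1 (9.22%), and without SCFA replicate 1 it was 6 (16.2%). It was 5 without H2O replicate 2 (11.1%). Of the 5 negative values, those with the smallest p were Tjp1 (-0.11 ± 0.062), Abcg2 (-0.44 ± 0.26) and Sox18 (-0.05 ± 0.17), and the value of Abcg2 was -0.01 without H2O replicate 5. Cldn5 (0.03 ± 0.097), Slc2a1 (0.07 ± 0.063), Abcb1a (0.01 ± 0.11), Mfsd2a (0.04 ± 0.12), Pecam1 (0.08 ± 0.097) and Flt1 (0.09 ± 0.089) lay within 2 SE of 0. So did the mural genes Pdgfrb, Vtn, Notch3, Acta2, Tagln and Tpm2, with Pdgfrb at 0.06 ± 0.087, Vtn at 0.09 ± 0.098, Notch3 at 0.01 ± 0.16, Acta2 at 0.42 ± 0.27, Tagln at 0.27 ± 0.20 and Tpm2 at 0.19 ± 0.11.

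Rats given both treatments (Abx_SCFA against H2O) had the highest group mean for 29 of the 38 vascular genes, without a call by edgeR. Abx_SCFA and H2O rats also belong to different number series, which cannot be told apart from the treatments. Abx had the lowest mean for 25 of them, among them 8 of 9 barrier, 11 of 17 endothelial and 6 of 7 pericyte genes, and H2O had the lowest mean for all 5 smooth muscle genes. Against H2O, 34 of the 38 genes had positive log2 fold changes, with medians of 0.10 for barrier, 0.16 for endothelial, 0.10 for pericyte and 0.50 for smooth muscle genes, beside -0.01 for all genes tested. At an adjusted p below 0.05, 0 of 38 and 0.0% of all genes were called. At an unadjusted p below 0.05, 9 were higher and 1 was lower, against 2.09% and 3.46% of all genes tested. The vascular genes that did not overlap between the groups were Flt1, Rgcc and Tpm2, 3 of 38, against 0.794% of all genes.

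Rgcc had the smallest p of the 38, with a log2 fold change of 0.39 ± 0.079 (SE) and an adjusted p = 0.815. DESeq2 called it (0.40, adjusted p = 0.022), whereas its adjusted p was 0.714 with limma-voom and between 0.296 and 0.805 under the other edgeR scalings, filters, covariates and choice of groups. Tpm2 followed at 0.44 ± 0.11, and the guidance receptor gene Robo4 at 0.67 ± 0.23. The other 6 on the higher side were Cldn5 (0.23 ± 0.10), Esam (0.21 ± 0.088), Eng (0.23 ± 0.10), Sox18 (0.40 ± 0.18), Acta2 (0.63 ± 0.28) and Tagln (0.50 ± 0.21). The scaffold gene Tjp1 was the 1 on the lower side (-0.14 ± 0.065), and Ednra (-0.16 ± 0.12) and Abcg2 (-0.31 ± 0.27) were negative too. All of these adjusted p-values were 0.815 to 0.846.

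Other barrier and mural genes differed less: Slc2a1 by 0.10 ± 0.066, Abcb1a by 0.13 ± 0.12, Mfsd2a by 0.02 ± 0.13, Pecam1 by 0.15 ± 0.10, Flt1 by 0.16 ± 0.093, Pdgfrb by 0.03 ± 0.091, Vtn by 0.19 ± 0.10 and Notch3 by 0.07 ± 0.17. The count of 10 genes at an unadjusted p below 0.05 became 4 without H2O replicate 4 (3.41% of all genes) and 4 without Abx_SCFA replicate 3 (3.94%). It was 6 without H2O replicate 1 (6.21%) and 6 without Abx_SCFA replicate 5 (3.26%). The barrier median was 0.06 without Abx_SCFA replicate 2 and 0.05 without Abx_SCFA replicate 5, and the pericyte median 0.06 without Abx_SCFA replicate 5. With both H2O replicate 4 and Abx_SCFA replicate 5 left out the count was 4 (share of all genes not given here), and the medians were 0.03 for barrier, 0.11 for endothelial, 0.06 for pericyte and 0.52 for smooth muscle genes. Rgcc then stood at 0.37 ± 0.087, Tpm2 at 0.46 ± 0.13 and Cldn5 at 0.18 ± 0.11, so that Cldn5 lay within 2 SE of 0. Fibroblast and perivascular macrophage markers, which lie next to smooth muscle in the vessel wall, were read beside it. The summed fibroblast markers (10 present, with Col1a2 and Ogn at 0 in every library) were 204 to 257 CPM in H2O and 208.5 to 264 CPM in Abx_SCFA, most of it from Pdgfra, which had 123 to 168 CPM over the 20 libraries. Of the 8 fibroblast genes tested, 7 were positive, with a median log2 fold change of 0.17 and 1 higher at an unadjusted p below 0.05. The 5 macrophage markers summed to 13.8 to 18.8 CPM in H2O and 13.8 to 22.0 CPM in Abx_SCFA, and 5 of 5 were positive, with a median of 0.26 and 0 at an unadjusted p below 0.05. These medians were at least as large as those of the barrier, endothelial and pericyte genes, and their part in the result was not tested.

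The comparison of Abx_SCFA with Abx asks what fatty acids added on top of antibiotics, and it shares the Abx_SCFA libraries with the comparison above and the Abx libraries with the first. Genes of all 4 vascular sets stood higher in Abx_SCFA, with medians between 0.20 and 0.27, and none passed the test. Of the 38 genes 36 had positive values, with Abcg2 (-0.13 ± 0.29) and Ednra (-0.03 ± 0.13) as the exceptions. Medians were 0.20 for barrier, 0.26 for endothelial, 0.27 for pericyte and 0.22 for smooth muscle genes, beside -0.0003 for all genes tested. edgeR called 0 of 38 and 0.0% of all genes, with an adjusted p of 0.999 for each vascular gene. At an unadjusted p below 0.05, 14 of 38 were higher and 0 lower, against 1.85% and 1.34% of all genes tested.

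Cldn5 led, with means of 157 ± 19.3 CPM (SD, n = 5) in Abx_SCFA and 117 ± 11.3 CPM (SD, n = 4) in Abx, a log2 fold change of 0.43 ± 0.11 (SE). Slc2a1 stood at 0.25 ± 0.070 and Rgcc at 0.30 ± 0.084. The junction genes Ocln (0.20 ± 0.086) and Esam (0.26 ± 0.094) and the pump gene Abcb1a (0.28 ± 0.13) complete the barrier genes among the 14. The endothelial ones were Flt1 (0.27 ± 0.099), Tek (0.25 ± 0.097), Eng (0.29 ± 0.11), Pecam1 (0.34 ± 0.11) and Podxl (0.26 ± 0.079), besides Rgcc. The pericyte ones were Anpep (0.37 ± 0.16), Abcc9 (0.36 ± 0.13) and Vtn (0.28 ± 0.11), whereas Pdgfrb stood at 0.12 ± 0.096 and Notch3 at 0.27 ± 0.18. No smooth muscle gene was among the 14: Acta2 stood at 0.30 ± 0.30, Tagln at 0.22 ± 0.22 and Tpm2 at 0.18 ± 0.12. Their median of 0.22 was 0.09 without Abx replicate 2, 0.10 without Abx_SCFA replicate 3 and 0.35 without Abx replicate 4. Mfsd2a stood at 0.05 ± 0.13. Groups did not overlap for Cldn5 and Rgcc, 2 of 38, against 0.623% of all genes.

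The 14 genes became 7 without Abx replicate 2 (2.85% of all genes), 7 without Abx_SCFA replicate 5 (1.92%) and 19 without Abx replicate 4 (3.25%). With H2O replicate 4 and Abx_SCFA replicate 5 both left out they were again 7 (share of all genes not given here), and the medians were 0.17 for barrier, 0.19 for endothelial, 0.20 for pericyte and 0.32 for smooth muscle genes. Cldn5 then stood at 0.36 ± 0.11. Red blood cell genes moved the same way: the 4 present summed to 64.1 to 133 CPM in Abx and 124 to 179 CPM in Abx_SCFA, and 3 of 4 were higher at an unadjusted p below 0.05. Their part in the result was not tested. Oligodendrocyte markers summed to 6552 to 13740 CPM in Abx and 11370 to 20070 CPM in Abx_SCFA. With their level in the model 15 genes were below 0.05 (share of all genes not given here) and the barrier median was 0.18.

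**Figure D5:**
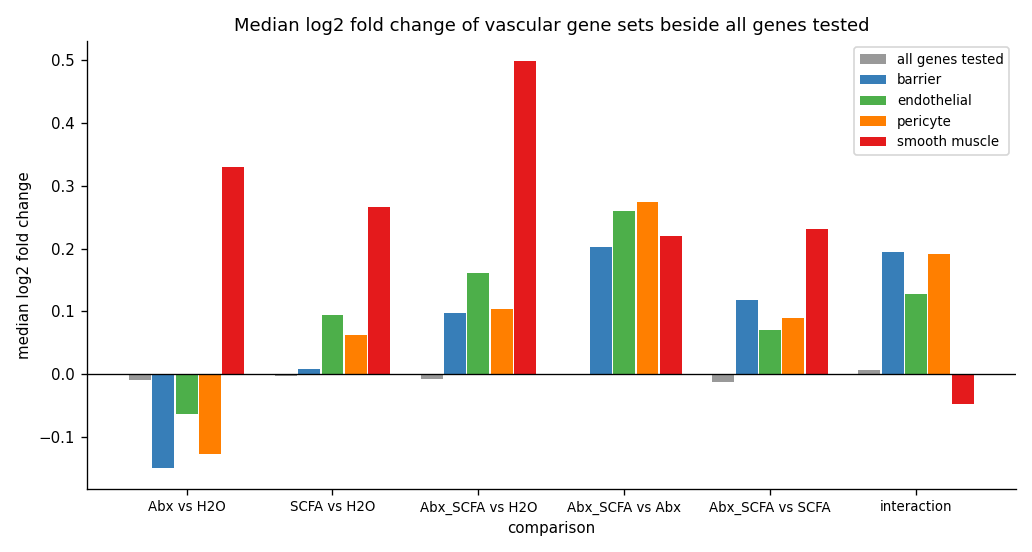
Median edgeR log2 fold change (vertical axis, bars from 0) of barrier, endothelial, pericyte and smooth muscle genes and of all genes tested in the 6 comparisons. Smooth muscle medians are 0.22 to 0.50 in all comparisons but the interaction, and barrier, endothelial and pericyte medians are negative only in Abx against H2O.

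Antibiotics among rats drinking fatty acids (Abx_SCFA against SCFA) went with smaller differences, and here both groups belong to the same number series. Of the 38 genes 30 were positive, with medians of 0.12 for barrier, 0.07 for endothelial, 0.09 for pericyte and 0.23 for smooth muscle genes, beside -0.01 for all genes tested. edgeR called 0 of 38 and 0.0% of all genes. At an unadjusted p below 0.05, 3 were higher and 1 lower, against 2.72% and 4.06% of all genes tested. These were Rgcc (0.22 ± 0.075, SE), Sox18 (0.45 ± 0.17), Tpm2 (0.26 ± 0.11) and, lower, the endothelin receptor gene Ednra (-0.43 ± 0.12), each with an adjusted p of 0.732.

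Ednra had 8.99, 13.2, 11.6, 9.93, 13.1 and 11.9 CPM in the 6 SCFA libraries and 7.08, 9.97, 8.68, 7.48 and 9.403 CPM in Abx_SCFA, and these groups overlapped. Its highest values were those of SCFA replicates 2 and 5. On leaving out 1 library its log2 fold change ran from -0.49 to -0.37. Cldn5 stood at 0.20 ± 0.097, Slc2a1 at 0.03 ± 0.063, Abcb1a at 0.12 ± 0.11, Mfsd2a at -0.02 ± 0.12, Pecam1 at 0.08 ± 0.096 and Flt1 at 0.07 ± 0.089. The mural genes Pdgfrb (-0.03 ± 0.087), Vtn (0.10 ± 0.097), Notch3 (0.06 ± 0.16), Acta2 (0.20 ± 0.27) and Tagln (0.23 ± 0.20) lay within 2 SE of 0. On the negative side Cd34 stood at -0.16 ± 0.20 and Kdr at -0.07 ± 0.16. Their signs were not stable: on leaving out 1 library Cd34 ran from -0.24 to 0.13 and Kdr from -0.19 to 0.01. Medians moved with single libraries here too. Without Abx_SCFA replicate 5 they were 0.04 for barrier, 0.02 for endothelial and 0.003 for pericyte genes, as they were with H2O replicate 4 left out as well. Without SCFA replicate 6 they were 0.06, 0.02 and 0.05, and without SCFA replicates 2 and 5 they were 0.05, 0.04 and 0.01. Without SCFA replicate 5 alone the barrier and pericyte medians were 0.07 and 0.04, and the barrier median was 0.06 without Abx_SCFA replicate 2. The endothelial median was 0.03 without SCFA replicate 2 and 0.11 without SCFA replicate 3 or 4, and the smooth muscle median 0.11 without Abx_SCFA replicate 3. Medium spiny neuron markers were positive in 11 of 11, with a median of 0.38 and 7 higher at an unadjusted p below 0.05, and summed to 3424 to 7365 CPM in SCFA and 6133 to 7486 CPM in Abx_SCFA. Cortical excitatory markers were negative in 10 of 11, with a median of -0.84 and 2 lower at an unadjusted p below 0.05. Their part in the result was not tested.

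Whether the antibiotic difference itself depended on fatty acids was tested as the interaction, the difference of Abx_SCFA from SCFA less that of Abx from H2O. Dependence on fatty acids and on number series cannot be told apart here. All 9 barrier genes had positive values, with a median of 0.19, as had 15 of 17 endothelial genes (0.13) and 6 of 7 pericyte genes (0.19). Of the smooth muscle genes 4 of 5 were negative, with a median of -0.05, beside 0.01 for all genes tested. The sign of this smooth muscle median was not stable: leaving out 1 library gave -0.21 to 0.08, with positive values without H2O replicate 1 (0.04), H2O replicate 4 (0.009), Abx replicate 4 (0.08) or Abx_SCFA replicate 5 (0.02), and with the cortical level in the model it was 0.11. The endothelial median was 0.05 without Abx_SCFA replicate 5, 0.07 without Abx replicate 2 and 0.08 without SCFA replicate 2, and the pericyte median 0.13 without SCFA replicate 5. Markers of other cells moved in the interaction as well: cortical excitatory markers had a median of -2.95, with 8 of 11 lower at an unadjusted p below 0.05, medium spiny neuron markers were positive in 11 of 11 (median 0.43), and oligodendrocyte markers in 9 of 9 (median 0.47). Their part in the result was not tested. edgeR called 0 of 38 and 0.0% of all genes. At an unadjusted p below 0.05 there were 2 higher and 0 lower, against 2.83% and 5.01% of all genes tested.

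The 2 were Cldn5 (0.39 ± 0.14, SE, adjusted p = 0.622) and the potassium channel subunit gene Abcc9 (0.38 ± 0.18, adjusted p = 0.626). Slc2a1 followed at 0.19 ± 0.094. Of the 7 negative values, those with the smallest p were Ednra (-0.30 ± 0.17), Myh11 (-0.25 ± 0.32) and Cd34 (-0.18 ± 0.29, and -0.29 to 0.10 on leaving out 1 library). The rest lay within 2 SE of 0, among them Abcb1a (0.27 ± 0.17), Mfsd2a (0.01 ± 0.18), Pecam1 (0.26 ± 0.14), Flt1 (0.18 ± 0.13), Rgcc (0.13 ± 0.11), Pdgfrb (0.06 ± 0.13), Vtn (0.19 ± 0.15), Notch3 (0.26 ± 0.24), Acta2 (-0.13 ± 0.40), Tagln (-0.05 ± 0.29) and Tpm2 (-0.003 ± 0.16). The count of 2 was 5 without Abx replicate 1 (5.99% of all genes), 5 without SCFA replicate 4 (10.8%) and 4 without Abx replicate 4 (6.3%). With H2O replicate 4 and Abx_SCFA replicate 5 both left out the count was 0 (share of all genes not given here), and Cldn5 stood at 0.32 ± 0.15. The count was 1 on leaving out any 1 of H2O replicates 2 to 5, Abx replicate 2, SCFA replicates 2, 5 and 6, or Abx_SCFA replicates 3 to 5. Between 5.42% and 11.1% of all genes were below 0.05 in those fits.

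Other genes of the same pathways were read from 9 lists, and 0 of their genes were called by edgeR in any of the 6 comparisons. In Abx_SCFA against Abx, where 1.85% of all genes tested were higher at an unadjusted p below 0.05, the members of most lists were positive, with counts at an unadjusted p below 0.05 of 2 of 11 for other junction genes, 1 of 8 for basement membrane, 3 of 17 for transforming growth factor, bone morphogenetic protein and endothelin genes, 2 of 10 for barrier-inducing Wnt genes, 1 of 11 for vascular endothelial growth factor and angiopoietin genes, 3 of 18 for other mural genes and 1 of 7 for leukocyte adhesion genes, all higher. In the list of other transporters the count was 0 of 13, and in the platelet-derived growth factor and Notch list it was 0 of 15. Medians in this comparison ran from 0.04 for other transporters to 0.16 for leukocyte adhesion genes. In Abx against H2O the medians ran from -0.13 for leukocyte adhesion genes to 0.09 for other mural genes, which were again on the positive side.

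The gene with the smallest p of each list over the 6 comparisons is given as a description, since it was picked for that p and none passed the adjustment. Angpt2, a ligand that destabilises vessels through Tek, had 4.402 ± 1.09 CPM (SD, n = 5) in H2O, 2.998 ± 0.718 (n = 4) in Abx, 4.31 ± 0.609 (n = 6) in SCFA and 4.25 ± 0.735 (n = 5) in Abx_SCFA, a log2 fold change of -0.56 ± 0.20 (SE, adjusted p = 0.563) in Abx against H2O. Tgfb1, a growth factor of the vessel wall, was at -0.30 ± 0.098 in the same comparison (adjusted p = 0.563) and at 0.29 ± 0.097 in Abx_SCFA against Abx. Slc16a1, which encodes a monocarboxylate carrier of the barrier, was at -0.32 ± 0.12 in Abx against H2O (adjusted p = 0.563), with means of 80.1 ± 9.18 CPM (SD, n = 5) in H2O and 64.6 ± 6.51 CPM (n = 4) in Abx.

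Lrp5, a Wnt co-receptor, was at 0.28 ± 0.087 in Abx_SCFA against Abx, the tricellular junction gene Lsr at 0.31 ± 0.10 and the endothelial laminin gene Lama4 at 0.26 ± 0.087, each with an adjusted p of 0.999. Pdgfb, the endothelial ligand of Pdgfrb, was at 0.35 ± 0.14 in SCFA against H2O (adjusted p = 0.286), and the chemokine gene Cxcl12 at 0.33 ± 0.14 in Abx_SCFA against Abx. Vim, an intermediate filament gene of mural cells and other cells, was at 0.48 ± 0.14 in SCFA against H2O (adjusted p = 0.247). In that comparison the cortical excitatory markers summed to 136 to 453 CPM in H2O and to 209.6 to 1631 CPM in SCFA, and their part in it was not tested.

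Markers of the other cells that a piece of tissue could hold were measured in all groups. Microglia markers (9 of 9) summed to 378 to 545 CPM in H2O, 401.2 to 426 CPM in Abx, 379.5 to 514 CPM in SCFA and 394.5 to 493 CPM in Abx_SCFA. Astrocyte markers (9 of 9) summed to 6183 to 6984, 5465 to 6671, 5967 to 7214 and 5949 to 6709 CPM in the same order. Choroid plexus and ependymal markers (8 of 8) summed to at most 33.7 CPM in any library, and the defining choroid plexus gene Ttr had at most 5 counts.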

How the data were processed

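The authors deposited 1 table of raw counts per gene symbol for 20 libraries, in whole numbers that sum to different totals. Per the labels' protocols, RNA came from column extraction and cDNA from a SMARTer kit, with polyA RNA as the molecule. Per the submitters' processing notes, the genome was Rnor_6.0 and the tools included STAR 2.4.0, FastQC 0.11.6 and limma. The counting tool, annotation and strand setting were not given in the sources used here. Groups came from the treatment labels, and table columns were matched to samples by rat number.

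Counts were fitted in R 4.3.3 with edgeR 4.0.16 (robust quasi-likelihood F test, TMM scaling, 1 model of 4 groups, 16 residual degrees of freedom). The function filterByExpr (at least 10 counts, 15 in total) kept 12846 genes. The standard error is the log2 fold change divided by the root of F. Calls were made at p below 0.05 after Benjamini-Hochberg adjustment over all genes tested. CPM values use TMM-adjusted totals, and log2 CPM a prior count of 2. The fit was tested on simulated data. Alternatives were DESeq2 1.42.0, limma-voom (limma 3.58.1), other scalings and filters, covariates and left-out libraries. No pair among the 190 library pairs agreed within sampling noise (chi-square per gene of at least 6.59).

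The members, gene lists and tests were chosen with earlier results of these data known. Named in each comparison are called members, otherwise the 3 positive and 3 negative members with the smallest p, and always Cldn5, Slc2a1, Abcb1a, Mfsd2a, Pecam1, Flt1, Rgcc, Pdgfrb, Vtn, Notch3, Acta2, Tagln and Tpm2. Other members at an unadjusted p below 0.05 were added after their values were seen. Of each pathway list the gene with the smallest p is named. Promoters came from RefSeq (GRCr8).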

Additional observations from a re-analysis of the deposited data

Results flagged for a closer look

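Of 152 sets of values (38 genes in 4 groups), 7 held a library far from the rest of its group by Dixon's criterion. Chance gives about 1 in 20, so that this number is near what chance alone gives. Abx_SCFA replicate 5 had 38.3 CPM of Esam against 28.95 to 31.5 CPM in the other 4 libraries of its group, and 287 CPM of Slc2a1 against 233 to 248 CPM. H2O replicate 1 had 8.39 CPM of Erg against 7.07 to 7.34 CPM, and 51.7 CPM of Notch3 against 65.4 to 70.1 CPM. H2O replicate 5 had 18.6 CPM of Abcg2 against 5.55 to 7.61 CPM, SCFA replicate 5 had 23.2 CPM of Cd34 against 8.68 to 10.7 CPM, and Abx replicate 4 had 1.78 CPM of Cnn1 against 0.237 to 0.400 CPM.

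Cldn5 lay below the H2O mean of 132 CPM in 4 of 4 Abx libraries and above the SCFA mean of 136 CPM in 5 of 5 Abx_SCFA libraries. The groups still overlapped in both comparisons. Abx had 101 to 127 CPM and H2O 116 to 151 CPM, while Abx_SCFA had 138 to 183 CPM and SCFA 110.1 to 161 CPM. The interaction was 0.39 on the log2 scale and did not pass the test of the difference (edgeR adjusted p = 0.622).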

How the results depend on the processing

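edgeR called 0 vascular genes in each of the 6 comparisons under every scaling, filter, covariate and left-out library, as did limma-voom, and DESeq2 called 1 (Rgcc, in Abx_SCFA against H2O). The number at an unadjusted p below 0.05 moved by over 1.5 times under these settings. With the oligodendrocyte level as a covariate it was 1 for Abx against H2O, 1 for SCFA against H2O and 1 for the interaction, and with the cortical level it was 1 for SCFA against H2O. With H2O replicate 4 and Abx_SCFA replicate 5 left out it was 0 for SCFA against H2O, 4 for Abx_SCFA against H2O, 7 for Abx_SCFA against Abx and 0 for the interaction, where it was 1 with at least 1 CPM in 4 libraries and 1 without SCFA replicates 2 and 5. The causes were not tested. Leaving out each library in turn gave 1 to 4 (Abx against H2O), 0 to 6 (SCFA against H2O), 4 to 13 (Abx_SCFA against H2O), 7 to 19 (Abx_SCFA against Abx), 3 to 6 (Abx_SCFA against SCFA) and 1 to 5 (interaction). The pericyte median of the interaction was 0.052 with the cortical covariate. Of 930 medians recomputed, 14 had another sign, and of 3131 values of named genes 103 had, with 0 beyond their SE in both directions. These numbers include fits that left out a library of neither group compared, where little could change. In Abx against H2O the smooth muscle median was 0.329 to 0.338 in such fits. Scaling moved the median of all genes to at most 0.01. For Cldn5 and Pecam1 r was 0.45 with group means removed and 0.51 without 2 libraries, for Acta2 and Tagln 0.68 and for Cldn5 and Pdgfrb 0.31 without 2 libraries. No paired analysis was possible because the replicate numbers were given in accession order and rat numbers are not shared between groups. Robo4 and Cnn1 are limited by depth.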
